A study of Mus musculus with 2 samples.

Results

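The core cardiac transcription factors set up and maintain the gene expression program of the heart muscle cell. They are DNA-binding proteins, together with 1 small homeodomain protein that does not bind DNA itself. The 10 genes Gata4, Gata6, Nkx2-5, Tbx5, Tbx20, Mef2a, Mef2c, Mef2d, Hand2 and Hopx were taken by symbol from the expression tables, and all 10 were found among 22882 gene symbols, each on 1 row. The data are from hearts of 23 day old mice of mixed sex on the C57BL6/J background. The control hearts were Med1fl/fl, which carry loxP sites around exons of Med1 but no deletion. The csMed1-/- hearts carried the same floxed alleles and an α-MyHC-Cre transgene, so that Med1, a subunit of the Mediator complex, was deleted in cardiomyocytes alone and other heart cells kept the gene. Hearts with Cre but without the floxed alleles were not analysed here, so effects of the transgene and of the deletion cannot be told apart. RNA of 5 hearts was pooled for each genotype and made into 1 library, so there are no replicates, the spread between mice is unknown and no test between the genotypes could be made. The values are FPKM, in which the fragments of a gene are divided by the length of its transcript and by the size of the library.

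As background, GATA4 and GATA6 bind DNA through zinc fingers, NKX2-5 through a homeodomain, TBX5 and TBX20 through a T-box, the MEF2 proteins through a MADS-box and HAND2 through a basic helix-loop-helix domain. These proteins bind each other and act together at the same enhancers of contractile, calcium handling and natriuretic peptide genes. Several of them are known to contact Mediator and other coactivators. Some members are not limited to cardiomyocytes, and Gata4, Gata6, Hand2 and Tbx20 are also expressed in other cells of the heart such as fibroblasts or endocardium.

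Med1 had 3.38 FPKM in Med1fl/fl and 0.412 FPKM in csMed1-/- heart, 0.122 times the control level, which goes with the labels. Genes were kept for comparison when they were above 0 FPKM in both libraries and reached 1 FPKM in at least 1 of them, which left 10489 genes, and a gene was called past 2-fold. The read number is not in the files used here, so absolute depth is unknown, and the lowest values point to a csMed1-/- library 1.39 times as deep as the other, if FPKM was scaled to mapped fragments alone. Of the cardiomyocyte markers, 6 of 9 kept genes were lower past 2-fold (66.7%, beside 17.98% of all kept genes) and none was higher. All 6 also stand in the list of target genes given below, so the 2 lists are not separate observations. Among them, Ryr2 and Pln were already reported as lower by the paper, so this count is not independent evidence. The defining markers Actc1 and Mb were listed at 0 in the control library, where heart muscle must express them. Myh6 was not analysed here. Of the fibroblast markers, 4 of 9 kept genes were higher past 2-fold (44.4%, beside 13.57% of all kept genes) and 2 were lower (22.2%, beside 17.98%). The summed level of the fibroblast markers went from 545 to 1206 FPKM. In these whole-heart pools fewer cells of a type and less RNA per cell cannot be told apart.

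Of the 10 members, 9 were kept, and 2 of these lay past 2-fold, Hopx lower and Tbx20 higher in csMed1-/- heart. Over all kept genes 17.98% were lower and 13.57% were higher past 2-fold, 31.55% in either direction, so 1 lower and 1 higher of 9 is near the background. The other 7 kept members, Gata4, Gata6, Nkx2-5, Tbx5, Mef2a, Mef2d and Hand2, stayed within 2-fold, as did 68.5% of kept genes. The tenth member, Mef2c, was below 1 FPKM in both libraries. The median log2 ratio of the 9 kept members was 0.20, beside -0.07 for all kept genes, and it was 0.01 beside 0 when ratios were centred in bins of GC content. Of the 9 kept members 6 were higher by any amount, beside 46.8% of all kept genes. Of these 6, Gata4 turned to -0.15 and Nkx2-5 and Mef2d came to 0.01 when ratios were centred in bins of GC content. At a threshold of 1.5-fold 2 members were lower (Hopx and Tbx5) and 3 higher (Tbx20, Mef2a and Hand2), where 29.75% of all kept genes were lower and 23.72% higher, 53.47% in either direction. At 4-fold Hopx alone remained, where 5.139% of kept genes were lower and 4.319% higher, 9.458% together.

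**Figure D1:**
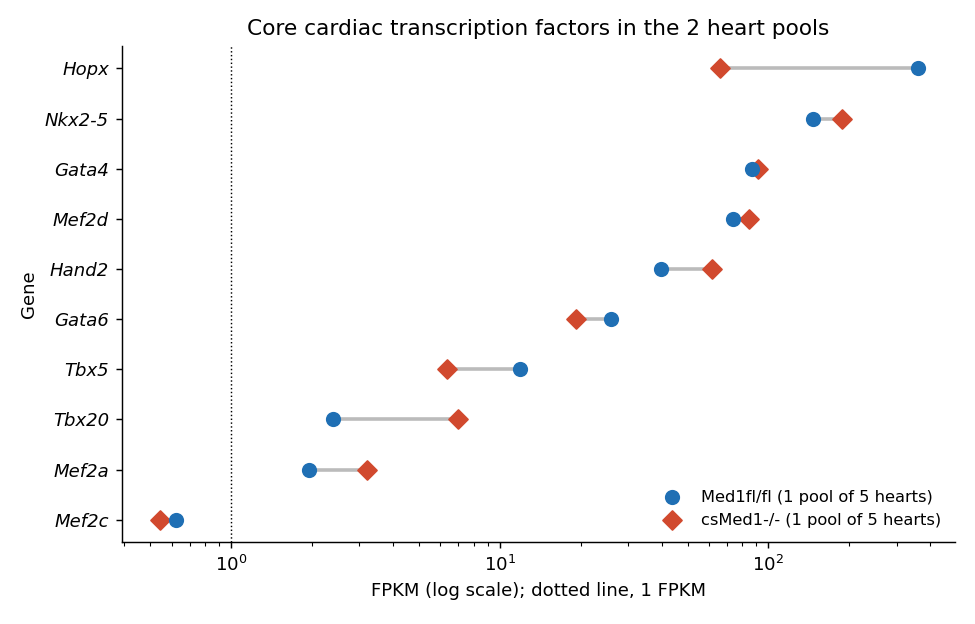
FPKM (log scale) of the 10 core cardiac transcription factors, with a circle for the Med1fl/fl pool and a diamond for the csMed1-/- pool. Hopx falls from the top of the order, 359 FPKM, to 66.2 FPKM, Tbx20 moves from 2.395 to 6.96 FPKM, and the other members lie within 2-fold of their control level.

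Hopx encodes a small homeodomain protein that does not bind DNA itself and is known to restrain serum response factor (SRF) together with the histone deacetylase HDAC2. It lies on chromosome 5 from 77086988 to 77115121, minus strand (GENCODE M21 annotation of GRCm38, the assembly also called mm10). Hopx had 359 FPKM in Med1fl/fl and 66.2 FPKM in csMed1-/- heart, which is 5.43-fold lower (log2 ratio -2.44). Only 3.22% of the kept genes had a lower ratio. In the control library Hopx was the highest of the 10 members and ranked 331st of all symbols, and in the csMed1-/- library it was the fourth member and ranked 1439th. It accounted for 48.0% of the sum over all members in control, against 12.5% in csMed1-/- heart. An antisense gene, Hopxos, overlaps Hopx in the annotation, and whether the reads were counted by strand is not given in the sources used here.

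The sequence before the start of transcription is shown for the members that passed 2-fold, Hopx with its 2 annotated starts and Tbx20, and for Hand2, whose promoter alone of the 10 holds more than 1 match of the words searched. The 250 bases end at the base before the RefSeq transcription start (GRCm38.p6), read 5′ to 3′ on the strand of the gene, minus for Hopx and Tbx20 and plus for Hand2. Capitals mark the matches of 5 motifs searched on both strands. These were GATA (the words AGATAA and AGATAG and TGATAA and TGATAG), NKX2-5 (CAAGTG and also TAAGTG), T-box (GGTGTGA), the MEF2 site and the SRF binding CArG box. No matches overlapped.
Hopx upstream start, chr5:77115124-77115373: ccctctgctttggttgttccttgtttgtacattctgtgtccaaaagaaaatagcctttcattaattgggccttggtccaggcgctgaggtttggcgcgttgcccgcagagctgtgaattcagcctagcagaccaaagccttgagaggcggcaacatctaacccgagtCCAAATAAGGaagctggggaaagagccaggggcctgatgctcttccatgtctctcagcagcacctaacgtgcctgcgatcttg
Hopx downstream start, chr5:77095268-77095517: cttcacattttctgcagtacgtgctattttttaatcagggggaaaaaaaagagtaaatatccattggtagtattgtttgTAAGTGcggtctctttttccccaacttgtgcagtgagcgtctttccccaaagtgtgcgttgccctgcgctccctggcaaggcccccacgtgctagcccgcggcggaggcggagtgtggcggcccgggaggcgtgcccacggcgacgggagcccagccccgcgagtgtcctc
Tbx20, chr9:24774304-24774553: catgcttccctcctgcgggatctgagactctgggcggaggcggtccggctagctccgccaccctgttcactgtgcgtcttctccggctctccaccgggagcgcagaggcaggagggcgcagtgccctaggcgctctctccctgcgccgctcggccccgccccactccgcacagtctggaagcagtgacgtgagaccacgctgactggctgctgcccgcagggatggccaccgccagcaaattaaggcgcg
Hand2, chr8:57320733-57320982: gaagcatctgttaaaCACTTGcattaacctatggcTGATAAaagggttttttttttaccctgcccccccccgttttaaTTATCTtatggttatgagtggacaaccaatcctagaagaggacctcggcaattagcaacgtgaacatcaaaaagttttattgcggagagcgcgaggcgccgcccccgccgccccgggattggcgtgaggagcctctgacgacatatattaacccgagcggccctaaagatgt
The capitals before the upstream Hopx start are a CArG box, CCAAATAAGG, 83 to 74 bases before the start, and 1.47% of 32851 promoters of the same length held such a box. The capitals before the downstream start are the NKX2-5 word TAAGTG, and 18.4% of all promoters held an NKX2-5 word. The Hand2 promoter held 2 GATA words, TGATAA on the strand shown and AGATAA on the other strand, and the NKX2-5 word CAAGTG on the other strand, so that the latter are printed as their reverse complement, and 26.5% of all promoters held a GATA word. None of the 5 motifs was found before the Tbx20 start. Promoter sequences were matched for 7 of the 10 members with 10 starts in all, and not for Gata4, Gata6 and Tbx5. Among the other members 1 further match was found, the NKX2-5 word CAAGTG before 1 of 3 Mef2c starts. A T-box word, which 3.33% of all promoters held, and a MEF2 site, which 2.92% held, were found before no member's start. Such a match is a description of these windows and not a binding site.

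Nkx2-5 encodes the cardiac NK homeodomain activator, which binds many of the same promoters as GATA4 and TBX5. It lies on chromosome 17 from 26838664 to 26845009, minus strand. Its level was 146 FPKM in Med1fl/fl and 188 FPKM in csMed1-/- heart, 1.29 times as high. The log2 ratio of 0.37 came to 0.01 when ratios were centred in bins of GC content. It stayed within 2-fold and was the highest member in the csMed1-/- library. No gene of the 223 symbols from other transcription factor families was above it in either library. The ratio of Hopx to Nkx2-5 within a library, which does not depend on library scaling, was 2.46 in control and 0.351 in csMed1-/- heart, a change of 6.99-fold. This change is smaller with ratios centred in bins of GC content, where the log2 ratios were -2.10 for Hopx and 0.01 for Nkx2-5.

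Tbx20 encodes a T-box factor that both activates and represses cardiac genes and is required for adult heart function. It lies on chromosome 9 from 24718138 to 24774303, minus strand. Tbx20 had 2.395 FPKM in Med1fl/fl and 6.96 FPKM in csMed1-/- heart, which is 2.91-fold higher (log2 ratio 1.54). Of the kept genes 93.1% had a lower ratio. Its level was low in both libraries, eighth of the members in control and seventh in csMed1-/- heart, and the log2 ratio was 1.23 once 1 FPKM was added to both values.

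Tbx5, the T-box activator that drives atrial, conduction and calcium handling genes, lies on chromosome 5 from 119832668 to 119885219, plus strand. It had 11.9 FPKM in Med1fl/fl and 6.36 FPKM in csMed1-/- heart, 1.87-fold lower (log2 ratio -0.90), which stayed just within 2-fold. Tbx5 and Tbx20 thus lay on opposite sides of no change. Summed, they gave 14.3 FPKM in Med1fl/fl and 13.3 FPKM in csMed1-/- heart, 0.932 times as much. Tbx5 made up 83.2% of that sum in control and 47.7% in csMed1-/- heart, and Tbx20 made up 16.8% and 52.3%. The ratio of Tbx5 to Tbx20 within a library was 4.97 in control and 0.913 in csMed1-/- heart, so Tbx20 was the lower of the pair in control and the higher in csMed1-/- heart.

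**Figure D2:**
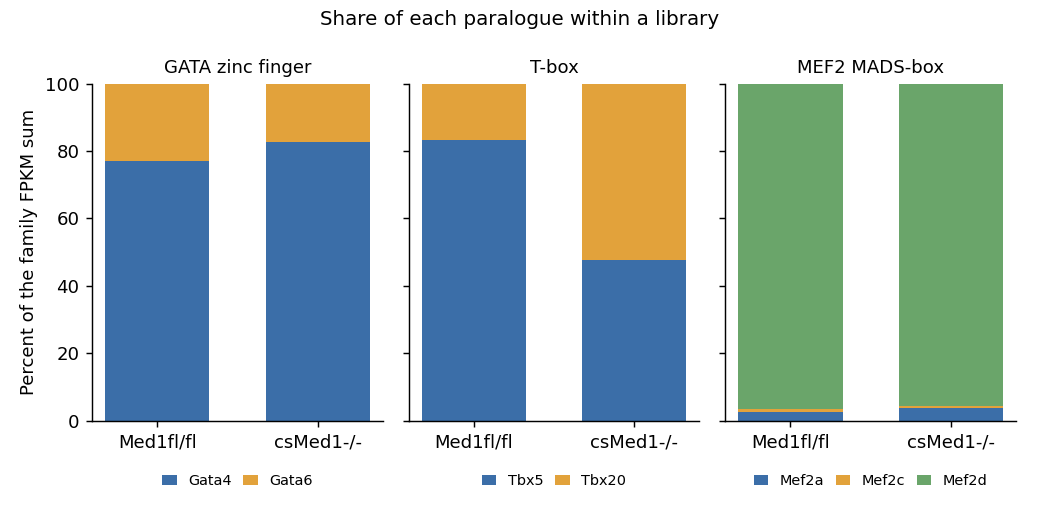
Share of each paralogue (percent of the family's summed FPKM) within the Med1fl/fl and the csMed1-/- library for the GATA, T-box and MEF2 members. Tbx20 takes 16.8% of the sum of Tbx5 and Tbx20 in control and 52.3% in csMed1-/- heart. Mef2d holds 96.6% and 95.8% of the sum of Mef2a, Mef2c and Mef2d.

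Gata4 and Gata6 encode the zinc finger factors of the myocardium, which can stand in for each other at many targets. Gata4 lies on chromosome 14 from 63198922 to 63271692, minus strand. Its level was 87.2 FPKM in Med1fl/fl and 91.6 FPKM in csMed1-/- heart. The log2 ratio of 0.07 is the smallest of the members and turned to -0.15 when ratios were centred in bins of GC content. Gata6 lies on chromosome 18 from 11052064 to 11085635, plus strand. Its level went from 25.9 FPKM in Med1fl/fl to 19.2 FPKM in csMed1-/- heart (log2 ratio -0.43), and the annotated gene 1010001N08Rik overlaps it on the other strand. Both genes stayed within 2-fold. Both together gave 113 and 111 FPKM, and the share of Gata4 in it was 77.1% and 82.7%. In control only 1 symbol of the other transcription factor families was above Gata4, and in csMed1-/- heart none was.

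The MEF2 genes encode MADS-box activators that carry calcium and stress signals to muscle promoters. Mef2d (chromosome 3 from 88142372 to 88172086, plus strand) had 73.8 FPKM in Med1fl/fl and 84.8 FPKM in csMed1-/- heart (log2 ratio 0.20). Mef2a (chromosome 7 from 67231163 to 67372858, minus strand) went from 1.95 FPKM in control to 3.20 FPKM in csMed1-/- heart (log2 ratio 0.72). Mef2c (chromosome 13 from 83504034 to 83667080, plus strand), the member best known from heart development, had 0.621 and 0.541 FPKM. Mef2c was therefore the lowest of the 10 members in both libraries, and its log2 ratio of -0.20 changed sign, to 0.07, with ratios centred in bins of transcript length. Mef2d made up 96.6% of the sum of these MEF2 members in control and 95.8% in csMed1-/- heart. The sum was 76.4 and 88.6 FPKM, a ratio of 1.16. Mef2a shares its locus with Lysmd4 on the other strand, which went from 9.74 FPKM to 4.92 FPKM, and Mef2d with the antisense gene 1700113A16Rik, with 33.8 and 43.5 FPKM.

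Hand2, the basic helix-loop-helix factor of the right ventricle and of neural crest derivatives, lies on chromosome 8 from 57320983 to 57324633, plus strand. It had 39.7 FPKM in Med1fl/fl and 61.8 FPKM in csMed1-/- heart, 1.56 times as high. The log2 ratio of 0.64 came to 0.28, inside 1.5-fold, when ratios were centred in bins of GC content. Hand2 was the fifth member in both libraries and stayed within 2-fold. Its promoter is among those printed with the Hopx sequences and holds GATA and NKX2-5 words. An annotated gene, Hand2os1, overlaps Hand2.

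**Figure D3:**
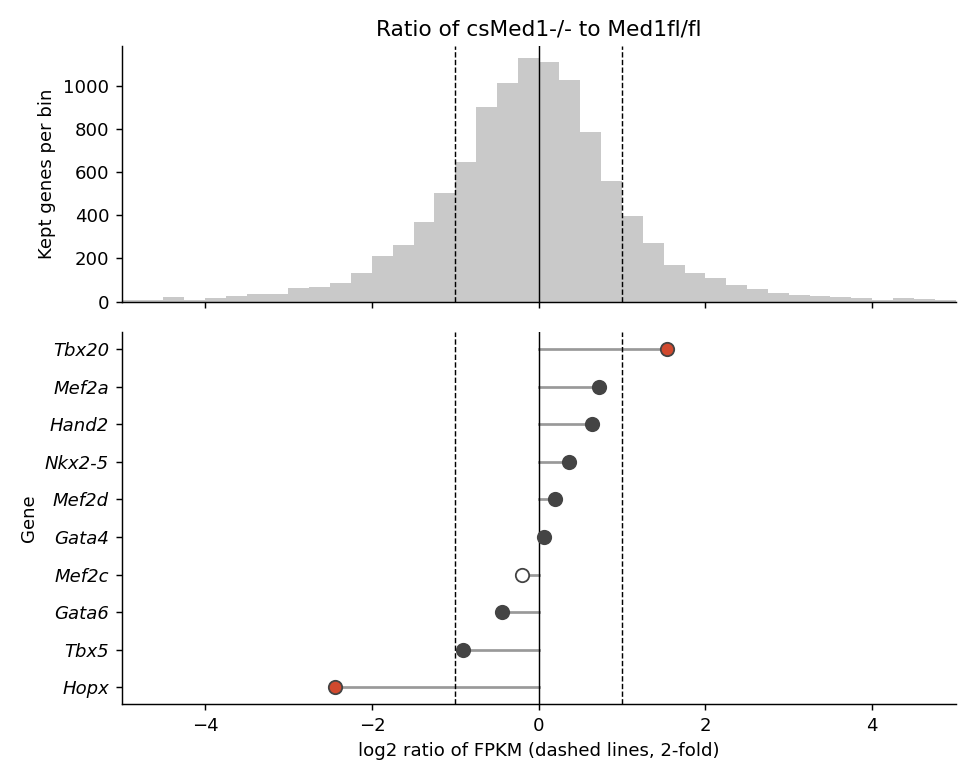
Number of kept genes per 0.25 of log2 ratio of csMed1-/- to Med1fl/fl FPKM (upper panel) and the log2 ratio of each member (lower panel), with an open circle for Mef2c, which was below 1 FPKM in both libraries. Hopx at -2.44 and Tbx20 at 1.54 lie outside the dashed 2-fold lines and the other members inside them.

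The order of the members by level was largely kept between the pools. From the highest, it was Hopx, Nkx2-5, Gata4, Mef2d, Hand2, Gata6, Tbx5, Tbx20, Mef2a and Mef2c in Med1fl/fl heart. In csMed1-/- heart it was Nkx2-5, Gata4, Mef2d, Hopx, Hand2, Gata6, Tbx20, Tbx5, Mef2a and Mef2c. With 1 library per genotype it cannot be said which neighbours in these orders differ beyond the spread between mice. All 10 members together summed to 749 FPKM in the control pool and to 529 FPKM in the csMed1-/- pool, 0.706 times as much. Without Hopx the sum was 390 and 463 FPKM, 1.19 times as much.

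Members with longer transcripts mostly had lower levels, except Mef2d, which had 73.8 FPKM in control with a transcript of 5401 bases. The longest annotated transcript runs from 1261 bases (Hopx) to 9091 bases (Tbx20), and Mef2c has 6277 bases. Spearman's rho between that length and FPKM over the 10 members was -0.87 in control and -0.70 in csMed1-/- heart, given as a description of 10 genes that share each library. Over the 9470 kept genes with a length (90.3%) it was -0.25 and -0.28. For kept genes over 6000 bases the median was 4.38 FPKM in the control and 3.49 FPKM in the other library, against 21.3 FPKM in both for genes up to 1500 bases. In control, Mef2a had 1.95 FPKM, where the median for kept genes of 4000 to 6000 bases was 6.13 FPKM. Tbx20 with 2.395 FPKM and Mef2c with 0.621 FPKM were also below the control median for kept genes over 6000 bases. The part of transcript length in the low levels of Mef2c, Mef2a and Tbx20 was not tested.

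**Figure D4:**
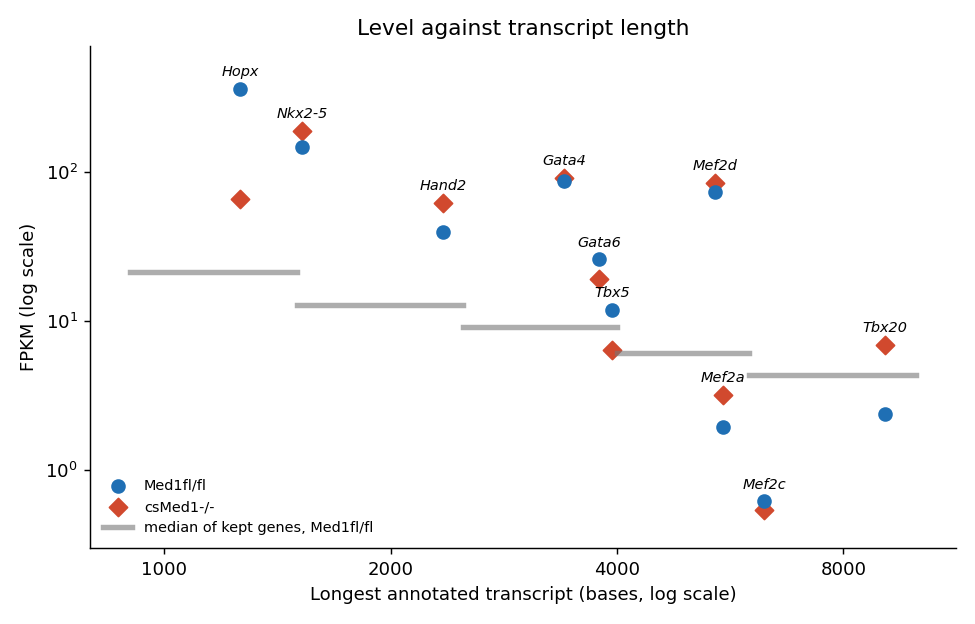
FPKM (log scale) of each member in both pools against its longest annotated transcript (bases, log scale), with grey bars for the median FPKM of kept genes of that length in Med1fl/fl heart. The short Hopx and Nkx2-5 transcripts lie at the top and Mef2c, Mef2a and Tbx20, with 6277, 5538 and 9091 bases, at the bottom, while Mef2d with 5401 bases lies well above the grey bars.

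Partners and regulators of these factors were listed by role. The list holds cofactors, signalling enzymes and inhibitors, and 27 of its 28 genes in the files were kept. Of these 3 were lower past 2-fold (11.1%, beside 17.98% of all kept genes) and none was higher, with a median log2 ratio of 0.05. With 1 FPKM added to all values 0 of 27 were lower, and with 1 FPKM required in both libraries 2 of 26. The 3 lower without these changes were Myocd, the coactivator of SRF (9.24 to 4.53 FPKM, log2 ratio -1.03), Nfatc3, a calcineurin-dependent factor (2.52 to 1.05 FPKM, -1.26), and Prkd1, a kinase that moves histone deacetylases off MEF2 (1.46 to 0.727 FPKM, -1.01). Myocd and Prkd1 lie so near to 2-fold that either is inside it when ratios are centred on their median.

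The partner genes of Hopx are Srf and Hdac2. Srf had 58.0 FPKM in Med1fl/fl and 74.3 FPKM in csMed1-/- heart, and Hdac2 had 2.25 and 1.14 FPKM. The log2 ratio of Hdac2, -0.97, is just inside 2-fold. For the GATA factors, the cofactor gene Zfpm1 had 20.7 and 27.6 FPKM and Zfpm2, which encodes FOG2, had 1.28 and 1.17 FPKM. Of the class II histone deacetylases that repress MEF2, Hdac5 was the highest going from 59.3 to 102.5 FPKM (log2 ratio 0.79). Hdac4 had 3.90 and 2.09 FPKM (-0.90) and Hdac7 had 27.1 and 22.4 FPKM (-0.28). Tcf3, which encodes an E protein partner of HAND2, had 15.1 and 14.6 FPKM. The inhibitors of helix-loop-helix factors Id1, Id2 and Id3 had log2 ratios of 0.48, 0.87 and 0.57, and so also stayed within 2-fold.

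Related factors are paralogues of the members and other developmental regulators of the heart. Of 30 genes 17 were kept, and 5 of these were lower past 2-fold (29.4%, beside 17.98% of all kept genes) and none was higher. With 1 FPKM added to all values 3 of 17 were lower, and with 1 FPKM required in both libraries 3 of 15. The median log2 ratio was -0.53. The 5 include 3 of the 5 kept Iroquois homeobox genes. Irx2 (5.45 and 4.24 FPKM, log2 ratio -0.36) and Irx5 (6.03 and 4.53 FPKM, -0.41) stayed within 2-fold. Irx4, a ventricle-specific repressor of atrial genes, had 28.4 FPKM in Med1fl/fl and 12.0 FPKM in csMed1-/- heart (log2 ratio -1.24). Irx3, which acts in the ventricular conduction system, had 22.9 and 9.64 FPKM (-1.25), and Irx1 had 11.4 and 4.82 FPKM (-1.24). The others were Hey2, a Notch-regulated ventricular repressor (1.06 and 0.409 FPKM), and Tbx3, a repressor that acts in the conduction system (2.18 and 0.858 FPKM). Both are low genes and came inside 2-fold when 1 FPKM was added to all values. Among paralogues of the members, Gata2 was within 2-fold (10.8 and 7.00 FPKM), and Gata5, Mef2b and Hand1 stayed below 1 FPKM in both libraries. Isl1, the marker of cardiac progenitors, was listed at 0 in both.

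Over 18 other families of transcription factor genes, chosen by symbol and partly the same genes as in the lists above, 91 of 223 symbols were kept. Of these 18 were lower (19.8%) and 14 higher (15.4%) past 2-fold, beside 17.98% and 13.57% of all kept genes, and the median log2 ratio was -0.31. Among such genes with at least 5 FPKM, the largest decrease was in Snai3 (10.7 to 0.151 FPKM, log2 ratio -6.15). Foxo6 (6.57 to 0.499 FPKM, -3.72) and E2f6 (25.3 to 4.50 FPKM, -2.49) followed. The largest increase was in Snai1 (4.35 to 21.02 FPKM, 2.27). Snai3 and Snai1 both encode zinc finger repressors.

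Genes known as targets of the members were also listed. Of 32 listed genes 27 were kept, 15 of which were lower (55.6%) and 4 higher (14.8%) past 2-fold, beside 17.98% and 13.57% of all kept genes. The median log2 ratio was -1.29. Several of these genes were already known to differ in these libraries when the list was made, so neither the size nor the direction of these differences is independent evidence, and they cannot be set against those of the members. The lowest ratios were those of the calcium handling genes Atp2a2 (3585 to 238 FPKM, log2 ratio -3.91), Pln (771 to 56.2 FPKM, -3.78) and Ryr2 (84.6 to 8.70 FPKM, -3.28). The 4 higher genes were Nppa (468 to 11114 FPKM, 4.57), Nppb (167 to 1480 FPKM, 3.14), Xirp2 (2.56 to 9.91 FPKM, 1.95) and Des (1871 to 4851 FPKM, 1.37). Nppa and Nppb encode the natriuretic peptides and are classical targets of GATA4, NKX2-5 and TBX5. Listed target genes thus lay on both sides of no change, and the other targets were not assigned to single factors here. Actc1 and Mb were listed at 0 in control and were not kept, and Myh6 and Myh7 were not analysed here.

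**Figure D5:**
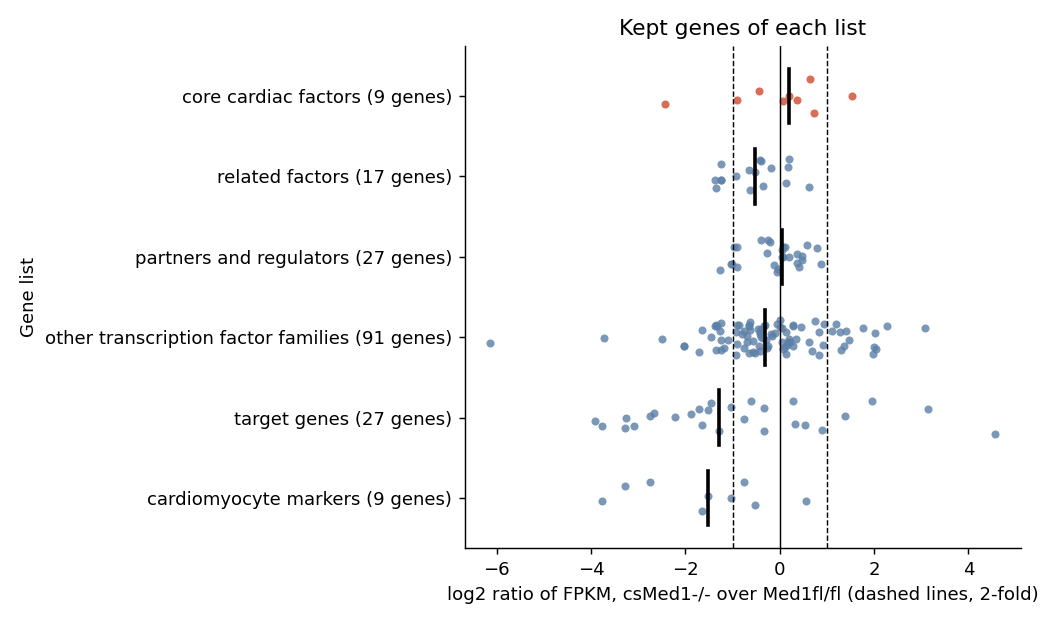
Log2 ratio of csMed1-/- to Med1fl/fl FPKM of the kept genes of 6 lists, 1 point per gene, with a black bar at each median and dashed lines at 2-fold. The medians are 0.20 for the core cardiac factors, 0.05 for the partners, -1.29 for the target genes and -1.52 for the cardiomyocyte markers. Several target genes were already known to differ when they were listed, so that list cannot be set against the members. All cardiomyocyte markers that were lower past 2-fold are also target genes, so the same limit holds for the markers.

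The marker lists of other heart cells moved unevenly beside the members. For the counts below, 17.98% of all kept genes were lower and 13.57% higher past 2-fold. Endothelial markers were lower past 2-fold in 3 of 9 kept genes and higher in none, with a summed level of 726 FPKM in Med1fl/fl and 656 FPKM in csMed1-/- heart. Of the smooth muscle and pericyte markers 3 of 7 were higher and 1 lower, with a sum of 679 and 1118 FPKM. Cnn1 alone went from 4.32 to 622 FPKM, while Acta2, the highest in control, went from 573 to 310 FPKM, so the sum does not describe the list. Macrophage markers were higher in 1 of 9, with a sum of 335 and 385 FPKM. Atrial myocyte markers were higher in 1 of 4 kept genes and lower in 1, and the epicardial markers were higher in 2 of 3 kept genes. These were the fibroblast gene Tcf21 (10.9 to 25.6 FPKM) and Krt19 (0.313 to 2.93 FPKM), the latter kept only through its csMed1-/- level. Of the skeletal muscle markers, Myod1 and Myog were listed at 0 in both libraries. The fibroblast sum rests mainly on the collagen genes Col1a1 (129 to 502 FPKM), Col1a2 (95.7 to 314 FPKM) and Col3a1 (139 to 220 FPKM), whereas Pdgfra, Dcn, Lum and Dpt had log2 ratios of -0.02, -0.24, -1.11 and -1.66. The members named above as expressed in other heart cells too, Tbx20, Hand2, Gata4 and Gata6, had ratios of 2.91, 1.56, 1.05 and 0.740. The part of cell composition in the levels of these or of the other members was not tested.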

How the data were processed

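Heart RNA of 5 mice per genotype was pooled, and 1 directional, oligo-dT selected library per pool was read as 50 nt single-end reads. The deposited FPKM values were computed by the authors from annotated mm10 genes, with TopHat2 2.0.8b and Cuffdiff 2.1.1 per the submitters' processing notes, which also name STAR 2.4.0h without its role. Library scaling within Cuffdiff, and whether reads were counted by strand, are not given in the sources used here.

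Rows sharing a symbol were summed (412 symbols, no member). Ratios are csMed1-/- over Med1fl/fl without a pseudocount, for genes with values above 0 in each library and reaching 1 FPKM in at least 1. With 1 library per genotype no difference between genotypes was tested, and calls are ratios past 2-fold. Lists are described by counts and medians beside all kept genes. Members and lists were chosen with earlier results of these data known. Named genes are the members, Med1, and from each list up to 3 genes per direction past 2-fold at 5 FPKM or more. Partners given by role, paralogues, Snai1, Snai3, single marker genes and genes completing a count of 5 or fewer were named after their values were seen. Not every gene that the rule names is printed.

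Positions and transcript lengths came from GENCODE M21 (GRCm38), by symbol, and promoters from RefSeq (GRCm38.p6). Alternatives covered pseudocounts, library scaling, filters, thresholds and rows; centring in bins of transcript length or GC content was added after seeing the data. Scripts ran in Python 3.11.15 with pandas 2.3.3, numpy 2.4.6 and scipy 1.17.1, and plots were drawn with matplotlib 3.10.9.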

Additional observations from a re-analysis of the deposited data

How the results depend on the processing

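Hopx stayed lower (log2 ratio -2.49 to -2.10) and Tbx20 higher (1.23 to 1.81) past 2-fold in all 9 alternatives tried on single members, and no other member passed 2-fold in any of them. Gata4 and Mef2c changed sign in 1 each. Scaling both libraries to the same sum added 0.12 to every log2 ratio, the largest shift of the 4 scalings. Then 50.7% of the genes past 2-fold were higher, against 43.0% without it. The log2 ratio over kept genes had a Spearman's rho of 0.20 with GC content and -0.09 with transcript length, and centring in bins of GC content brought the members' median and the log2 ratios of Nkx2-5 and Mef2d to 0.01. With 75th percentile scaling, or with the 100 highest genes left out of the sum, 4 partners were lower instead of 3. No paired analysis was possible because each genotype has 1 library, and leaving out replicates was not possible either. The depth behind low members such as Mef2c, Mef2a and Tbx20 is unknown.

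Counts moved by over 1.5 times as follows, where fewer or more genes tested follow from each filter and otherwise the cause was not tested. At 1.5-fold, 2 members were lower and 3 higher, beside 29.75% and 23.72% of kept genes. At 4-fold 0 members were higher, and with 10 FPKM in either library 0 of 7 were, since Tbx20 is below that limit. Of all kept genes, lower and higher, 3182 and 2504 of 15930 passed without the 1 FPKM limit, 885 and 821 of 5426 with 10 FPKM, 539 and 453 at 4-fold, and 3120 and 2488 at 1.5-fold. Related factors were lower in 3 cases with a pseudocount of 1, with 1 FPKM in both libraries and with 10 FPKM, in 0 at 4-fold and in 8 at 1.5-fold, and higher in 3 without the limit and in 1 at 1.5-fold. Partners were lower in 0 cases with a pseudocount of 1, with 10 FPKM and at 4-fold, in 1 when centred on the median, scaled to the same sum or centred in bins of length or GC content, and in 6 at 1.5-fold. They were higher in 2 at 1.5-fold and in 1 when centred in either kind of bin. Targets at 4-fold were lower in 8 and higher in 2. The other families were lower in 28 without the limit, 8 with 10 FPKM, 5 at 4-fold and 33 at 1.5-fold. They were higher in 8 with a pseudocount of 1, 26 without the limit, 9 with 1 FPKM in both libraries, 6 with 10 FPKM and 4 at 4-fold.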
